A study of Mus musculus with 6 samples.

Results

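The genes described here encode enzymes of glycolysis: the hexokinases Hk1, Hk2 and Hk3, the phosphofructokinases Pfkl, Pfkm and Pfkp, the triose phosphate isomerase Tpi1, the phosphoglycerate kinase Pgk1, the pyruvate kinase Pkm and the lactate dehydrogenase Ldha. They were taken by gene symbol, and all 10 were found among the 23282 genes counted in the series. Glycolysis splits glucose into pyruvate in the cytosol and yields ATP without oxygen. Hexokinase and phosphofructokinase catalyse early, essentially irreversible steps, the isomerase and phosphoglycerate kinase work on the triose phosphates further down, pyruvate kinase makes pyruvate, and lactate dehydrogenase turns pyruvate into lactate. Blood stem cells are known for relying on glycolysis in the hypoxic marrow, and many of these genes are known targets of hypoxia-inducible factors and of Myc.

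RNA of mouse marrow cells transformed with MLL-AF9, a leukaemia-causing fusion of the histone methyltransferase MLL1 with AF9, was sequenced beside that of LSK cells, the lineage-negative, Sca1-positive, c-Kit-positive fraction that holds the blood stem cells. The study asked what Mll4 (Kmt2d), another histone methyltransferase, does to the transcriptome of these cells. All mice were of a mixed 129/Sv x C57BL/6 background. Counts per gene were deposited for 9 libraries in 6 groups.

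MLL-AF9 cells labelled Mll4 deleted (2 libraries) were Mll4f/f + Cre: marrow transformed by a retrovirus carrying MLL-AF9, then infected with a retrovirus carrying Cre recombinase and Tomato. The intact MLL-AF9 cells (2 libraries) were Mll4f/f + EV, infected with an empty Tomato vector. Cells positive for GFP and Tomato were sorted 5 days after infection, so Cre goes with deletion and cannot be told apart from it. MLL-AF9 cells with FOXO3 (2 libraries) came from MLL4-/- marrow given MLL-AF9-neo together with FOXO3-IRES-GFP, and their controls (1 library) from MLL4-/- marrow given MLL-AF9-neo and EV. These were selected in G418 for a week and sorted for GFP, so the FOXO3 cells and their controls both lack Mll4 by label. All MLL-AF9 cells had a growth duration of 14 days. LSK cells labelled Mll4f/f + Cre (1 library) and WT (1 library) were sorted without culture from 2-month-old littermates, all carrying MxCre, a Cre under an interferon-inducible promoter, and all given polyIC to induce it. About 50 cells were picked for each LSK library and their cDNA was amplified by PCR, whereas the MLL-AF9 libraries came from extracted RNA and a TruSeq kit.

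Total counts ranged from 25895041 to 61950773 per library, and levels are given below in CPM, counts per 1000000 counts of the library. Kmt2d, counted over the whole gene, did not show the deletion: it had 95.6 and 73.7 CPM in the labelled-deleted MLL-AF9 libraries, against 79.5 and 61.7 CPM in the intact ones, and 13.9 CPM in the LSK library labelled Mll4 deleted, against 1.88 CPM in the wild-type one. Such counts do not check a deletion of part of a gene, and the LSK values go against the label, so "labelled Mll4 deleted" is meant throughout. Foxo3 had 1292 and 1309 CPM in the FOXO3 libraries, against 27.3 CPM with the empty vector. The first deleted library (771 CPM of Xist) and the second intact library (687 CPM) came from female marrow, and the other 5 MLL-AF9 libraries had 0.936 to 2.21 CPM of Xist. The counts of the FOXO3 pair differed almost only by sampling noise (chi-square 1.97 per degree of freedom, against 191 for the deleted pair and 146 for the intact pair). Nothing in the labels says that libraries of a group are separate cultures, so p-values measure the spread between these libraries. That spread is shared over the groups of the fit and so includes the near-identical FOXO3 pair. With the pair summed into 1 library, edgeR called 312 genes on Mll4 loss instead of 2237. Of the markers, 9 of 10 LSK and stem cell genes were counted in the labelled-deleted LSK library, where Slamf1 was at 0, and 10 of 10 in the wild-type one. All 10 also had counts in every MLL-AF9 group, so a count does not tell the cell types apart. Their sum was 1080 CPM in the labelled-deleted LSK library and 1187 CPM in the first deleted MLL-AF9 library. The myeloid markers Mpo and Csf1r were counted in every MLL-AF9 library, though Csf1r stood at 1.70 and 1.92 CPM with FOXO3 and 7.46 CPM with the empty vector, against 156 to 404 CPM in the deleted and intact libraries.

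**Figure D1:**
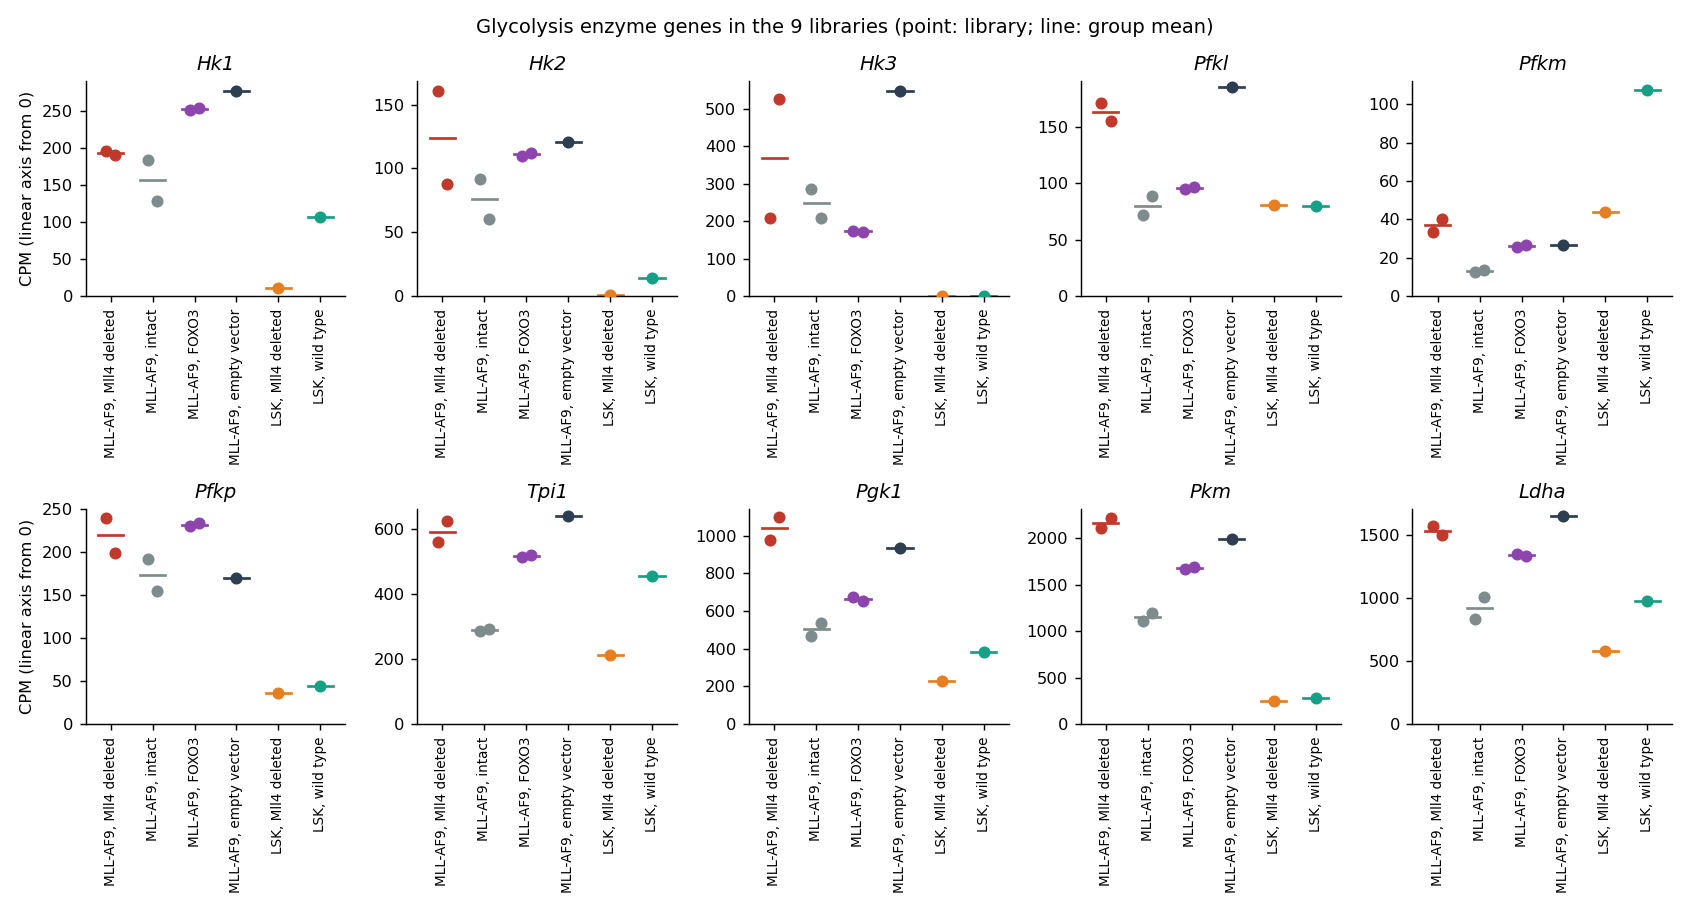
CPM of the 10 glycolysis enzyme genes in the 9 libraries, with a point for each library and a line at each group's mean. Pfkl, Pfkm, Tpi1, Pgk1, Pkm and Ldha stand higher in both labelled-deleted MLL-AF9 libraries than in both intact ones, Hk3 is at or near 0 in the LSK libraries (0 and 0.263 CPM), and Pfkm is highest in wild-type LSK cells (107 CPM).

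Promoters are shown for 4 members. Ldha, called in no comparison of the main fit, and Pgk1 are shown because their printed windows hold ACGTG, the core of the hypoxia response element. Pfkm had the largest fold change on Mll4 loss, and its printed window holds that core too. Pfkl was the only member called in more than one comparison. Tpi1 and Pkm, also called on Mll4 loss, are not shown. Each is the stretch of 250 bases before a start annotated by RefSeq (GRCm38.p6), 5′ to 3′ on the gene's strand. The capitals mark each ACGTG on either strand, CACGTG included where it overlaps.
Ldha, chr7:46845554-46845803, plus strand: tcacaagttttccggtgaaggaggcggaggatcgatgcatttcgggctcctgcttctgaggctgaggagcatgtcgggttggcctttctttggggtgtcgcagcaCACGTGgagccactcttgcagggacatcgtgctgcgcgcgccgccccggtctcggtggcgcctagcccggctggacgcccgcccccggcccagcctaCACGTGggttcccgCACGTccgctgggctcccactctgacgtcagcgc
Pgk1, chrX:106186850-106187099, plus strand: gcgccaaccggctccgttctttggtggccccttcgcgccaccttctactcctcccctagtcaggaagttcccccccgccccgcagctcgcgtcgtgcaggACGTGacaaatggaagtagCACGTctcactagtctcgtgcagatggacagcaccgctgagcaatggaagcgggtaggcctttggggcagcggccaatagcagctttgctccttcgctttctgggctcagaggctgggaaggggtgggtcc
Pfkm, chr15:98092339-98092588, plus strand: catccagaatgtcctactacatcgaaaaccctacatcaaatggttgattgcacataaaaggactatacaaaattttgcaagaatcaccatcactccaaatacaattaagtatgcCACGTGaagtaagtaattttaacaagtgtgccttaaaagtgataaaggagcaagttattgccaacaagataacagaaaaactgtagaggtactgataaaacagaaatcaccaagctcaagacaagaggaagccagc
Pfkl, chr10:78009808-78010057, minus strand: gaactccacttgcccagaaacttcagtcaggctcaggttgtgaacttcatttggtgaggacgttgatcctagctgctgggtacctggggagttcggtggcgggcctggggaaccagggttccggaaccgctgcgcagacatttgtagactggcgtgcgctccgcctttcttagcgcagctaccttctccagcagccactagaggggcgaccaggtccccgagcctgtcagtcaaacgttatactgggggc
The printed Ldha window holds CACGTG at 2 places and the printed Pfkm window at 1, while the Pfkl window holds no ACGTG. Ldha and Pfkm have further annotated starts, and the window printed for each is the one with the most ACGTG. Their other windows hold no CACGTG. Searched on both strands from 250 bases before to 50 bases after each start, ACGTG was found for 7 of the 10 members (Hk1, Hk2, Hk3, Ldha, Pfkm, Pgk1 and Pkm), or in 8 of their 16 windows, against 21.8% of all genes and 19.6% of all 32851 windows. CACGTG, the E-box, which always contains ACGTG, was found for 2 members (Ldha and Pfkm), against 8.09% of genes. GTAAACA, a forkhead site of the kind FOXO factors bind, was found for 0 members, against 4.05% of genes. The printed windows differed in base composition, with 67.2% G and C for Ldha and 36.4% for Pfkm beside a median of 52.4% over all windows, and its part in these matches was not tested. The windows not printed had 51.2% to 60.4% for Pfkm and 54.4% for Ldha.

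Levels are compared between the members per kilobase of exon, in the MLL-AF9 libraries only. Ldha and Pkm, at the end of the pathway, were the most abundant: Ldha had 809 ± 28.5 CPM per kb in the labelled-deleted cells and 485 ± 65.2 in the intact ones, and Pkm had 834 ± 28.6 in the labelled-deleted cells and 442 ± 22.9 in the intact ones (SD, n = 2 each). Pgk1 and Tpi1 followed, with 570 ± 46.5 and 336 ± 24.9 CPM per kb in the labelled-deleted cells. The genes of the early steps stood far lower, with Hk3 at 109.5 ± 66.4 CPM per kb in the labelled-deleted cells and the other hexokinases and phosphofructokinases between 12.3 (Pfkm) and 51.1 (Pfkp). Pfkm was the lowest member in each of the 4 MLL-AF9 groups, at 4.34 to 12.3 CPM per kb.

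Loss of Mll4 in MLL-AF9 cells was accompanied by higher levels of 5 of the 10 members, Pfkl and Pfkm among the phosphofructokinases and Tpi1, Pgk1 and Pkm in the lower pathway, and none was lower. These calls are at an adjusted p under 0.05 in edgeR's quasi-likelihood test, fitted on all 7 MLL-AF9 libraries, and across all genes tested 14.9% were called, 7.97% as higher and 6.94% as lower. The median log2 fold change was 0.54 over the members and -0.03 over all genes. After scaling, every labelled-deleted library stood above every intact one for 6 members, the called genes and Ldha, against 26.9% of all genes. The members were chosen with earlier results of these data known, so these shares describe them and are no independent evidence about the pathway. No member kept its call when the near-identical FOXO3 pair was summed into 1 library (2.08% of genes called), and those adjusted p-values stand beside each call.

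Pfkm, the muscle-type phosphofructokinase, had 33.4 and 40.4 CPM in the labelled-deleted libraries, against 12.6 and 13.5 CPM in the intact ones. It rose by 1.22 ± 0.16 (SE) on the log2 scale (edgeR adjusted p = 0.0126, or 0.0517 with the FOXO3 pair summed). Both deleted libraries were thus well above both intact ones, although the absolute level stayed the lowest of the family. Pfkl, the liver-type enzyme, had 171 and 155 CPM in the labelled-deleted libraries, against 72.1 and 88.5 CPM in the intact ones. It rose by 0.73 ± 0.17 on the log2 scale (edgeR adjusted p = 0.0421, or 0.0962 with the pair summed). The groups again did not overlap. Pfkp, the platelet-type enzyme and the most abundant of the family in the intact cells, had 240 and 199 CPM in the labelled-deleted libraries, against 192 and 155 CPM in the intact ones. Per CPM the deleted libraries lay just above the intact ones, but after TMM scaling the groups overlapped, and the log2 fold change was 0.07 with a 95% interval of -0.26 to 0.39 (edgeR adjusted p = 0.758).

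The hexokinases, which trap glucose in the cell as glucose 6-phosphate, did not pass the test. Hk1, the broadly expressed form, had 196 and 190 CPM in the labelled-deleted libraries, against 184 and 129 CPM in the intact ones, a log2 fold change of 0.04 with a 95% interval of -0.31 to 0.39 (edgeR adjusted p = 0.877). Hk2, the inducible form, had 160 and 87.6 CPM in the labelled-deleted libraries, against 91.7 and 60.2 CPM in the intact ones (log2 fold change 0.44, 95% interval -0.31 to 1.19, edgeR adjusted p = 0.355). Its groups overlapped, and the deleted pair was spread more widely than the difference between the groups. Hk3, a form known from myeloid cells, had 210 and 525 CPM in the labelled-deleted libraries, against 285 and 210 CPM in the intact ones. Its log2 fold change of 0.30 had a 95% interval of -0.71 to 1.32 (edgeR adjusted p = 0.647), which holds changes of more than 2-fold upwards and of smaller size downwards. Without the first deleted library it was 0.89 and called (edgeR adjusted p = 0.0258), without the second it was -0.51 (edgeR adjusted p = 0.0792), and these are the highest and lowest values over the alternatives. The deleted libraries also differed in summed markers of mast cells and basophils, with 10650 CPM where Hk3 was low and Hk2 high, and 711 CPM where Hk3 was high and Hk2 low. For Hk3 the other groups went the opposite way. In the intact libraries these markers were at 4730 CPM beside 285 CPM of Hk3, and at 1858 CPM beside 210 CPM. With FOXO3 they were at 247 and 250 CPM beside 175 and 171 CPM of Hk3, against 2270 CPM beside 546 CPM with the empty vector. The part of such cells in the hexokinase levels was not tested, and in these bulk libraries fewer cells of a type and less RNA per cell cannot be told apart.

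In the lower pathway the groups were separate for every member. Tpi1, which interconverts the triose phosphates, had 561 and 623 CPM in the labelled-deleted libraries, against 286 and 291 CPM in the intact ones (log2 fold change 0.75 ± 0.12, edgeR adjusted p = 0.0204, or 0.0795 with the pair summed). Pgk1, which makes ATP from 1,3-bisphosphoglycerate, had 980 and 1100.1 CPM in the labelled-deleted libraries, against 469 and 536 CPM in the intact ones (log2 fold change 0.76 ± 0.16, edgeR adjusted p = 0.0325, or 0.0961 with the pair summed). Pkm, whose splice forms are not resolved by gene counts, had 2114 and 2220 CPM in the labelled-deleted libraries, against 1107 and 1191 CPM in the intact ones (log2 fold change 0.63 ± 0.14, edgeR adjusted p = 0.0369, or 0.121 with the pair summed). The 3 genes rose by like amounts while their levels differed. Ldha had 1571 and 1495 CPM in the labelled-deleted libraries, against 832 and 1007 CPM in the intact ones, and its log2 fold change of 0.45 ± 0.17 did not pass (edgeR adjusted p = 0.127). Transcripts of Ldha and Pgk1 matched 4 pseudogenes each and Tpi1 1, at 95% identity or more over at least 200 bases. Pkm matched 2 other genes, 1 of them a pseudogene, and Pfkp matched Pitrm1, which is no pseudogene, over 748 bases. Reads of these 5 members may be shared with those genes.

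**Figure D2:**
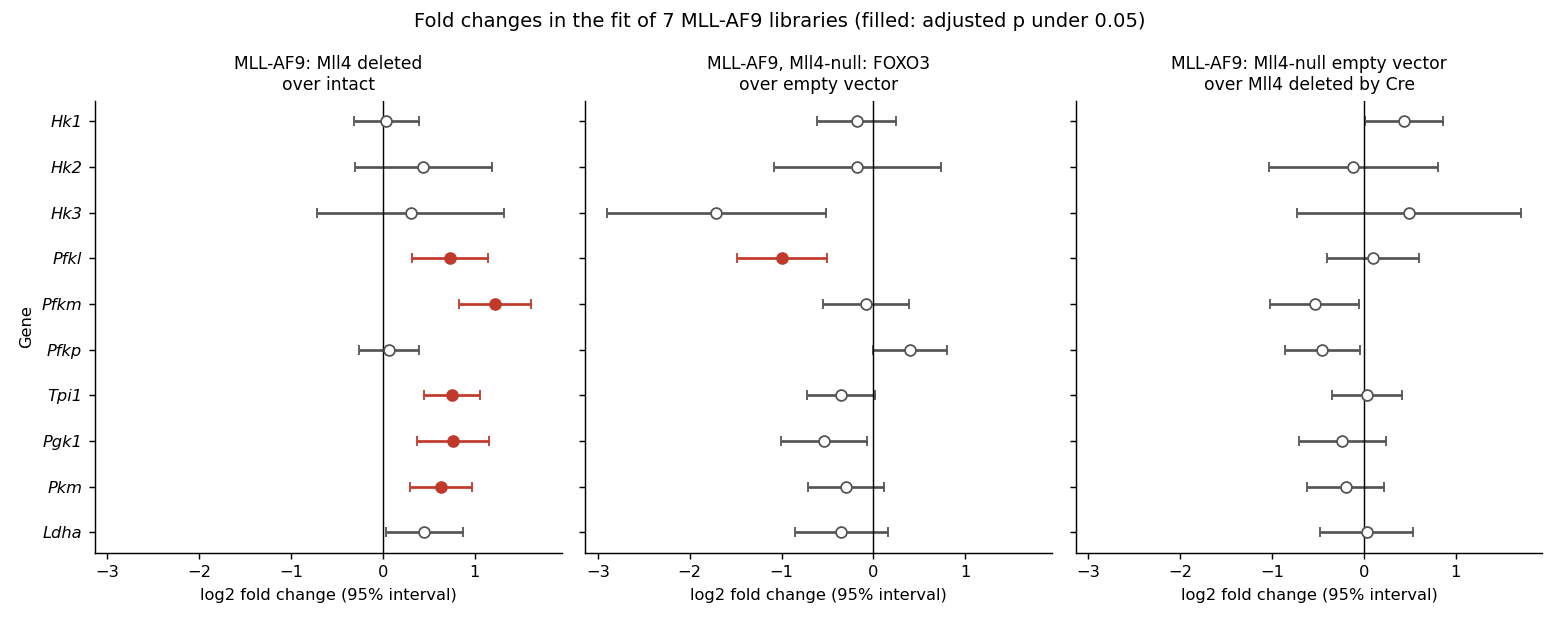
Log2 fold changes of the 10 genes with 95% intervals in 3 comparisons of MLL-AF9 cells, from the fit of 7 libraries. Filled points are the calls, 5 for Mll4 deleted over intact (0.63 to 1.22), Pfkl alone for FOXO3 over empty vector (-0.998) and none for the Mll4-null empty-vector cells over the Cre-deleted ones.

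Other measures moved with these values. Summed cell cycle markers (10 genes) were at 2119 and 2408 CPM in the labelled-deleted libraries, against 915 and 908 CPM in the intact ones. Primary granule markers (5 genes) were at 10200 and 13610 CPM in the labelled-deleted libraries, against 1711 and 2446 CPM in the intact ones, and macrophage markers (10 genes) at 2095 and 3263 CPM in the labelled-deleted libraries, against 4422 and 5414 CPM in the intact ones. All markers of these lists had counts in both groups, and their part in the higher glycolysis genes was not tested. Each group holds a female and a male library, and the 5 called genes were higher on deletion in both sexes, by 0.94 in the female and 1.49 in the male pair for Pfkm and by 0.47 in the female and 0.81 in the male pair for Pkm (log2). The hexokinases and Pfkp had opposite signs in the 2 sexes: Hk2 differed by 1.05 in the female and -0.26 in the male pair, and Hk3 by -0.36 in the female and 0.68 in the male pair. With 1 library of each sex in a group, this was not tested. All 5 calls were lost without the first intact library and without either FOXO3 library. Pfkl, Pgk1 and Pkm were lost without the second deleted library, Pfkl without the first (edgeR adjusted p = 0.0614), and Pgk1 with sex as a covariate (edgeR adjusted p = 0.0539).

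Beyond the members, 12 of 77 genes tested in 7 lists of glycolysis and its surroundings were called on Mll4 loss, or 15.6%, which is near the 14.9% of all genes and so no result about these lists. Among 16 other glycolysis enzyme genes tested, 1 rose and 0 fell: Ldhb, the heart-type lactate dehydrogenase subunit, at 7.76 ± 0.80 CPM in the labelled-deleted cells and 2.90 ± 0.33 CPM in the intact ones (SD, n = 2 each). Of 10 genes of glucose and lactate transport 1 rose and 1 fell. Slc16a1, the monocarboxylate carrier MCT1, had a log2 fold change of 0.65 ± 0.15 (edgeR adjusted p = 0.0424), and Slc2a6, a glucose transporter of the GLUT family, one of -0.96 ± 0.18 (edgeR adjusted p = 0.0252). Of 14 genes that control glycolytic flux 2 rose and 1 fell. Egln3, a prolyl hydroxylase that marks hypoxia-inducible factors for destruction and is itself hypoxia-induced, was at 69.6 ± 9.04 CPM in the labelled-deleted cells and 25.3 ± 4.44 CPM in the intact ones (log2 fold change 1.19 ± 0.14, edgeR adjusted p = 0.0109, or 0.0484 with the pair summed). Its relative Egln1 rose by 0.45, and Pfkfb4, which makes the phosphofructokinase activator fructose 2,6-bisphosphate, fell by 0.68 on the log2 scale (edgeR adjusted p = 0.0435 for Egln1 and 0.0466 for Pfkfb4).

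Of 14 genes for the entry of pyruvate into mitochondria 3 rose and 1 fell. The pyruvate carrier subunit Mpc2 rose by 1.03 ± 0.17, the pyruvate dehydrogenase kinase Pdk3 by 0.80 ± 0.18 and the pyruvate dehydrogenase phosphatase Pdp2 by 0.74 ± 0.18, while the other phosphatase gene, Pdp1, fell by 0.94 ± 0.15 on the log2 scale (edgeR adjusted p = 0.0178 to 0.0477 over the 4). None of 7 genes of the pentose phosphate pathway was called by edgeR, and the smallest p belonged to Rpia (log2 fold change 0.43, adjusted p = 0.0865) and Taldo1 (0.33, adjusted p = 0.108). Fbp1, the gluconeogenic fructose bisphosphatase, was the only call among 5 genes of gluconeogenesis, with 0.41 ± 0.041 CPM in the labelled-deleted cells and 8.36 ± 5.85 CPM in the intact ones (log2 fold change -4.58 ± 0.60, edgeR adjusted p = 0.0127, or 0.0484 with the pair summed). Among 12 other hypoxia-induced genes 0 rose and Bnip3l, a mitophagy receptor, fell by 0.53 on the log2 scale (edgeR adjusted p = 0.0349). Of all the genes in these lists, Egln3 and Fbp1 kept their calls with the FOXO3 pair summed. The medians of these lists lay between -0.18 (gluconeogenesis) and 0.33 (pentose phosphate pathway), beside 0.54 for the members. The other glycolysis enzyme genes had a median of 0.03, with 8 of 16 estimates above 0, so as a list they did not rise like the members. That list mixes abundant genes with nearly silent ones such as Pklr (0.048 CPM in the labelled-deleted and 0.124 CPM in the intact cells). Of its abundant genes, Gpi1 had a log2 fold change of 0.53 (edgeR adjusted p = 0.0546), Aldoa 0.33, Gapdh 0.20 and Pgam1 -0.20, and none was called. Members and lists were chosen with earlier results of these data known, so the contrast between them is no independent result.

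FOXO3, a forkhead transcription factor, was expressed in Mll4-null MLL-AF9 cells, and of the 10 members Pfkl alone was called, as lower. In this comparison 7.13% of all genes were called, 2.20% as higher and 4.93% as lower. Pfkl had 94.6 and 96.8 CPM with FOXO3, against 185 CPM with the empty vector, so that both FOXO3 libraries stood near the intact cells of the other transformation (72.1 and 88.5 CPM). Its log2 fold change was -0.998 ± 0.198 (edgeR adjusted p = 0.0425), but the adjusted p was 0.238 with the FOXO3 pair summed (1.19% of genes called) and 0.232 to 0.243 without either FOXO3 library. The control group has 1 library, assumed by the fit to vary like the others.

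The largest estimate among the members was that of Hk3, with 175 and 171 CPM with FOXO3, against 546 CPM with the empty vector. Its log2 fold change of -1.71 ± 0.48 did not pass in edgeR (adjusted p = 0.103) and did pass in DESeq2 (adjusted p = 0.00552) and when either deleted library was left out. Both FOXO3 libraries lay below the empty vector for 9 of the 10 members, against 49.7% of all genes, and above it for 1, against 40.8%, and the median log2 fold change was -0.32 over the members and -0.04 over all genes. In the lower pathway Pgk1 had 677 and 654 CPM with FOXO3, against 935 CPM with the empty vector (log2 fold change -0.54, SE 0.19, edgeR adjusted p = 0.162). Tpi1 had 515 and 521 CPM with FOXO3, against 641 CPM with the empty vector (log2 fold change -0.35, edgeR adjusted p = 0.236). Pkm had 1666 and 1686 CPM with FOXO3, against 1994 CPM with the empty vector, and Ldha had 1351 and 1330 CPM with FOXO3, against 1653 CPM with the empty vector. Neither passed, with edgeR adjusted p-values of 0.357 for Pkm and 0.379 for Ldha.

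Pfkp was the member higher with FOXO3, at 230 and 234 CPM, against 170 CPM with the empty vector (log2 fold change 0.40, 95% interval -0.00084 to 0.81, edgeR adjusted p = 0.217). Hk1 had 251 and 253 CPM with FOXO3, against 277 CPM with the empty vector, and Hk2 had 110 and 112 CPM with FOXO3, against 121 CPM with the empty vector. Pfkm was nearly level, with 25.8 and 26.6 CPM with FOXO3, against 26.9 CPM with the empty vector (log2 fold change -0.08, 95% interval -0.55 to 0.39, edgeR adjusted p = 0.855). Pfkl and Pfkm, both higher on Mll4 loss, thus differed in their values with FOXO3, though the difference between the genes was not tested. The summed cell cycle markers were at 3839 and 3873 CPM with FOXO3, against 3854 CPM with the empty vector. Neutrophil markers (9 genes) were at 3522 and 3420 CPM with FOXO3, against 8118 CPM with the empty vector, macrophage markers at 45.4 and 46.7 CPM, against 206 CPM, and primary granule markers at 20100 and 20030 CPM, against 12480 CPM. All markers of these lists had counts in both groups, and their part in the values of Pfkl and Hk3 was not tested.

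In the other 7 lists 4 of 77 genes tested were called with FOXO3, or 5.19%, against 7.13% of all genes, so these counts are no result about the lists either. The median log2 fold change was 0.14 over the other glycolysis enzyme genes, with 10 of 16 estimates above 0, beside -0.32 over the members. The lower values of the members thus did not extend to that list. Over the 7 lists the medians ran from -0.30 (glucose and lactate transport) to 0.64 (gluconeogenesis). Among 16 other glycolysis enzyme genes 0 rose and 1 fell, the liver and red cell pyruvate kinase Pklr, which had 1 count in each FOXO3 library and 180 counts with the empty vector. Erythroid markers (7 genes) moved with it, at 1.56 and 1.18 CPM with FOXO3, where Hba-a1 and Hbb-b1 were at 0, against 37.3 CPM with the empty vector, where Hbb-b1 was at 0. Megakaryocyte markers (6 genes, all with counts) were at 36.3 and 37.5 CPM with FOXO3, against 187 CPM with the empty vector, and LSK and stem cell markers (10 genes, all with counts) at 225 and 232 CPM with FOXO3, against 593 CPM with the empty vector. Their part in the values of Pklr and the other genes was not tested. Slc2a6 was the only call among 10 transport genes, at 2.67 and 1.98 CPM with FOXO3, against 13.6 CPM with the empty vector (log2 fold change -2.60 ± 0.22, edgeR adjusted p = 0.00426, or 0.0321 with the pair summed). Of 14 pyruvate entry genes Mpc2 alone was called, at 129 ± 1.99 CPM with FOXO3 (SD, n = 2), against 43.7 CPM with the empty vector. Of 12 hypoxia-induced genes Vegfa, the vascular growth factor, alone was called, at 156 ± 1.92 CPM with FOXO3 (SD, n = 2), against 68.7 CPM with the empty vector (log2 fold change 1.13 ± 0.23, edgeR adjusted p = 0.0442). None of 14 flux control genes was called, where Pfkfb2 had the smallest p (log2 fold change 0.76, edgeR adjusted p = 0.0925), followed by Pfkfb3 (0.40, adjusted p = 0.176). None of 7 pentose phosphate genes or of 5 gluconeogenesis genes was called by edgeR, with estimates of -0.28 for Pgd, 0.20 for Rpe, -0.65 for G6pc3 and 1.12 for Pck2 on the log2 scale. Of the calls in these lists Slc2a6 alone was kept with the FOXO3 pair summed, where edgeR's adjusted p was 0.0577 for Pklr, 0.0865 for Mpc2 and 0.173 for Vegfa.

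The series holds MLL-AF9 cells without Mll4 from 2 transformations, the MLL4-/- marrow with the empty vector (1 library) and the Mll4f/f marrow with Cre (2 libraries), and the members were compared between them. None of the 10 members was called by edgeR, while 21.7% of all genes were, 9.54% as higher and 12.2% as lower, and with the FOXO3 pair summed again none was, beside 6.97% of genes. At an unadjusted p under 0.05 in edgeR 3 members differed, beside 5823 of all 14997 genes tested. DESeq2 called 1 member (Pfkp), beside 4536 of 14568 genes, so these counts are no result about the members. Hk1 had 277 CPM in the MLL4-/- empty-vector library, against 196 and 190 CPM in the Cre-deleted ones (log2 fold change 0.44, 95% interval 0.01 to 0.86, edgeR adjusted p = 0.1198). Pfkm had 26.9 CPM in the MLL4-/- empty-vector library, against 33.4 and 40.4 CPM in the Cre-deleted ones (log2 fold change -0.54, 95% interval -1.02 to -0.05, edgeR adjusted p = 0.102). Pfkp had 170 CPM in the MLL4-/- empty-vector library, against 240 and 199 CPM in the Cre-deleted ones (log2 fold change -0.45, 95% interval -0.86 to -0.05, edgeR adjusted p = 0.101).

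For the other members the intervals of this difference show how much could have been missed. They were -0.34 to 0.41 for Tpi1, -0.40 to 0.60 for Pfkl, -0.48 to 0.54 for Ldha, -0.62 to 0.22 for Pkm and -0.71 to 0.24 for Pgk1 on the log2 scale. For Hk2 (-1.03 to 0.80) and Hk3 (-0.73 to 1.71) they were wide enough to hold a change by more than 2-fold. Without the second deleted library Hk3 was 1.30 and called (edgeR adjusted p = 0.0152), and without the first it was -0.075. This comparison shares the empty-vector library with that of FOXO3 and the deleted libraries with that of Mll4 loss. In the other 7 lists 18 of 77 genes tested were called, or 23.4%, a share near the 21.7% of all genes. Of 16 other glycolysis enzyme genes 1 was higher and 3 were lower, and of 10 transport genes 1 was higher and 4 were lower in the MLL4-/- empty-vector cells. Ldhb had 0.34 CPM in the empty-vector library, against 7.20 and 8.32 CPM in the Cre-deleted ones (log2 fold change -4.57 ± 0.41, edgeR adjusted p = 0.00551, or 0.0189 with the pair summed). The neuronal enolase Eno2 had 0.076 CPM in the empty-vector library and 1.94 and 2.02 CPM in the Cre-deleted ones, and the brain-type aldolase Aldoc had 4.25 CPM in the empty-vector library and 15.4 ± 1.72 CPM (SD, n = 2) in the Cre-deleted cells. Pklr was the higher gene, with 180 counts in the empty-vector library and 2 counts in each Cre-deleted one. Beside it the summed erythroid markers were at 37.3 CPM in the empty-vector library, where Hbb-b1 was at 0, against 2.92 and 1.89 CPM in the Cre-deleted ones, where Hba-a1 was at 0. Other markers, all with counts, differed too. Macrophage markers were at 206 CPM in the empty-vector library, against 2095 and 3263 CPM in the Cre-deleted ones, megakaryocyte markers at 187 CPM, against 424 and 595 CPM, and cell cycle markers at 3854 CPM, against 2119 and 2408 CPM. The part of these in the differences between the transformations was not tested.

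Among the transporters Slc16a1 was higher in the MLL4-/- empty-vector cells, at 159.5 CPM, against 60.1 ± 9.80 CPM (SD, n = 2) in the Cre-deleted cells (log2 fold change 1.33 ± 0.18, edgeR adjusted p = 0.0100, or 0.0351 with the pair summed). The lactate exporter Slc16a3, with a log2 fold change of -1.24, the main glucose transporter Slc2a1 (-0.82), Slc2a6 (-1.43) and Slc2a8 were lower. Myc, which drives many glycolysis genes, was the only call of 14 flux control genes, at 296 CPM in the empty-vector library and 158 ± 2.81 CPM (SD, n = 2) in the Cre-deleted cells. Of 14 pyruvate entry genes Pdp2 was higher (log2 fold change 1.10), and Pdk2 (-2.32) and Mpc2 (-0.85) were lower. Both called pentose phosphate genes of 7 tested were higher, Rpia by 0.90 and Rpe by 0.82 on the log2 scale. Of 12 hypoxia-induced genes 3 were lower, the collagen prolyl hydroxylases P4ha1 (-0.91) and P4ha2 (-4.97) and the mitophagy receptor Bnip3 (-0.71), and of 5 gluconeogenesis genes 0 were called by edgeR, with log2 fold changes of 0.51 for G6pc3 and -1.90 for Fbp1. With the FOXO3 pair summed Ldhb, Eno2, Pklr, Slc16a1, Slc2a6, Pdk2, P4ha1 and P4ha2 kept their calls and the others did not.

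The make-up of the hexokinase and phosphofructokinase families is given as each gene's share of the family's CPM per kb. Hk3 was the most abundant hexokinase in 6 of the 7 MLL-AF9 libraries. Its share was 47.6% and 74.0% in the labelled-deleted libraries and 61.1% and 62.7% in the intact ones. It was 42.3% and 41.4% with FOXO3, against 67.5% with the empty vector, and in the second FOXO3 library Hk1 stood just above it at 42.4%. The deleted pair thus spanned both the intact pair and the empty-vector library, while the FOXO3 libraries lay below all the others.

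Among the phosphofructokinases the order of Pfkl and Pfkp was not the same in every library. Pfkl made up 40.6% and 41.0% of the family in the labelled-deleted libraries, against 28.4% and 36.9% in the intact ones. With FOXO3 its share was 29.0% and 29.1%, against 50.6% with the empty vector, the only library in which Pfkl outranked Pfkp (40.3%). Pfkm held 9.85% and 13.3% in the labelled-deleted libraries, against 6.14% and 6.99% in the intact ones. These shares were not tested and follow from the same counts as the fold changes above.

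**Figure D3:**
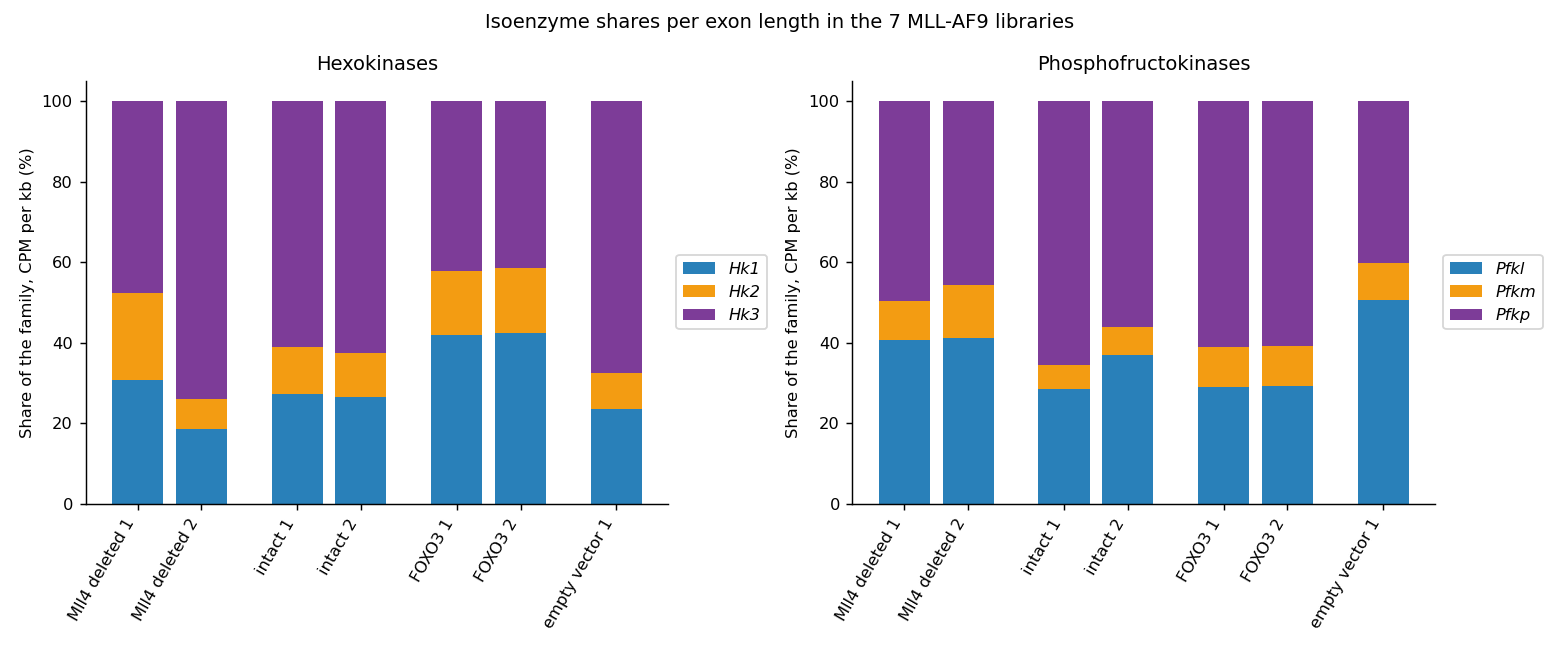
Share of each isoenzyme gene in the summed CPM per kb of its family, for the 7 MLL-AF9 libraries, with a bar for each library. Hk3 ranges from 41.4% (FOXO3) to 74.0% (deleted, second library), and Pfkl from 28.4% (intact, first library) to 50.6% (empty vector).

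In LSK cells, with 1 library a group and no test, 4 members stood at least 2-fold lower in the library labelled Mll4 deleted than in the wild-type one, and 0 at least 2-fold higher. Of all genes with at least 10 counts in either library 35.6% were at least 2-fold lower and 28.6% at least 2-fold higher, so changes of this size were common between these libraries, and the share of members is near that background. Hk1 had 11.3 CPM in the library labelled Mll4 deleted, against 107 CPM in wild type, a log2 ratio of -3.24 with a 95% interval of -3.42 to -3.06 (exact binomial, counting error only). Hk2 had 0.66 CPM, or 17 counts, in the library labelled Mll4 deleted, against 14.4 CPM, or 382 counts, in wild type (log2 ratio -4.45, 95% interval -5.25 to -3.75). Hk3 had 0 counts in the library labelled Mll4 deleted, which allows up to 0.116 CPM, against 7 counts in wild type.

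The phosphofructokinases differed among themselves in LSK cells. Pfkm had 43.9 CPM in the library labelled Mll4 deleted, against 107 CPM in wild type (log2 ratio -1.29, 95% interval -1.39 to -1.19). Pfkl had 81.1 CPM in the library labelled Mll4 deleted and 79.8 CPM in wild type (log2 ratio 0.02), and Pfkp had 35.7 CPM and 44.6 CPM in these libraries (log2 ratio -0.32). Pfkm thus made up 27.3% of the family's counts in the library labelled Mll4 deleted and 46.3% in wild type, beside 4.54% to 10.2% in the MLL-AF9 libraries. The hexokinase counts came almost wholly from Hk1, with 94.5% in the library labelled Mll4 deleted and 87.9% in wild type.

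Of the lower pathway Tpi1 had 212 CPM in the LSK library labelled Mll4 deleted, against 454 CPM in wild type (log2 ratio -1.10, 95% interval -1.14 to -1.05). Pgk1 had 226 CPM in the library labelled Mll4 deleted, against 385 CPM in wild type (log2 ratio -0.77), and Ldha had 578 CPM, against 972 CPM in wild type (log2 ratio -0.75). Pkm was nearly level, with 248 CPM in the library labelled Mll4 deleted, against 275 CPM in wild type, and its log2 ratio of -0.15 lay at the median of all genes (-0.17). Neighbouring genes went further apart in both directions: Ldhb had 200.5 CPM in the library labelled Mll4 deleted, against 6.28 CPM in wild type, and Egln1 had 0 counts, against 1257 counts in wild type. Each library stands for about 50 cells, and the levels cannot be told apart from differences between cells picked or in amplification. These libraries also differed in the Y-linked gene Ddx3y, with 14.4 CPM in the library labelled Mll4 deleted, against 0.83 CPM in wild type. Xist was low in both, at 2.05 CPM in the library labelled Mll4 deleted and 3.65 CPM in wild type. The 2 genes thus do not settle the sex of the wild-type library, and the part of sex was not tested. Summed erythroid markers were at 1.12 CPM in the library labelled Mll4 deleted, against 201 CPM in wild type, and Hba-a1 and Alas2 were at 0 in both. Mast cell and basophil markers were at 40.1 CPM in the library labelled Mll4 deleted, with 3 of 5 at 0, against 7.71 CPM in wild type, with 4 of 5 at 0. Their part in the LSK values was not tested.

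**Figure D4:**
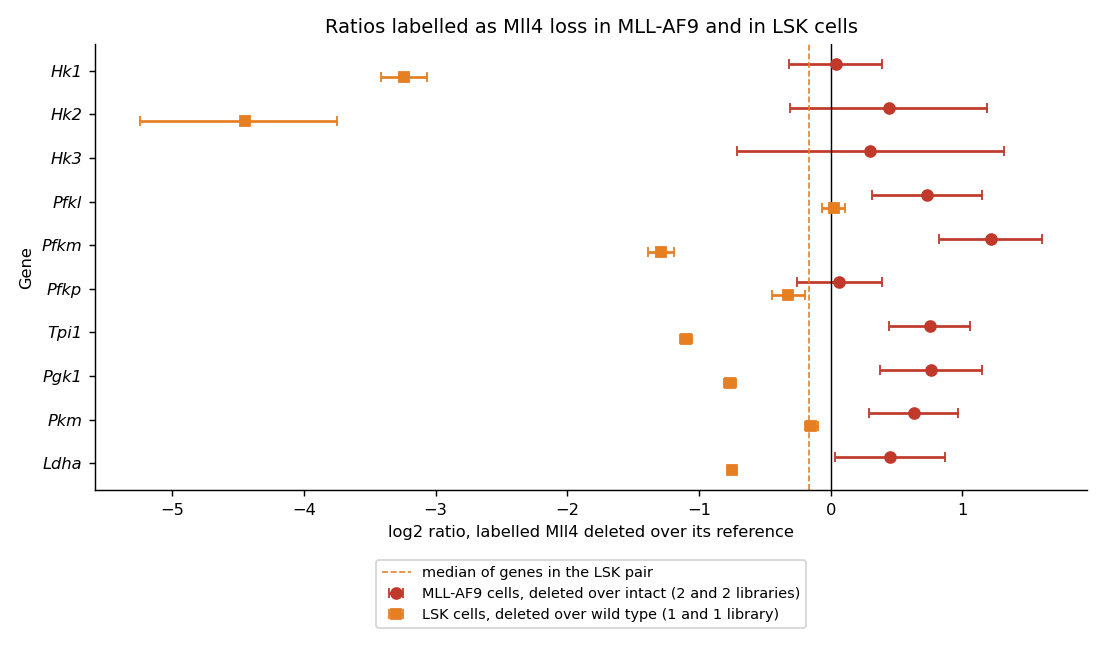
Log2 ratios labelled as Mll4 loss in MLL-AF9 cells (circles, 95% interval of the fit) and in LSK cells (squares, 95% counting interval of 1 library a group), with a dashed line at the LSK median of -0.17. Pfkm, Tpi1, Pgk1 and Ldha lie above 0 in MLL-AF9 cells and below the LSK median in LSK cells, while Hk3 has no LSK ratio because it had 0 counts in the library labelled Mll4 deleted.

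Intact MLL-AF9 cells and wild-type LSK cells differ in transformation, culture and library protocol together, so their levels are set side by side without a test. By mean CPM 7 members were higher in the intact MLL-AF9 cells, and for 6 of them both intact libraries lay above the wild-type LSK library, beside 65.6% of all genes. With TMM scaling over all 9 libraries 4 members were higher. Those were Hk3 (log2 ratio 9.88 per CPM, 9.21 scaled), Hk2 (2.40 and 1.74), Pkm (2.06 and 1.41) and Pfkp (1.96 and 1.30). Hk1 (0.55 and -0.12), Pgk1 (0.38 and -0.27) and Pfkl (0.01 and -0.64) turned with the scaling. Pfkm was lower in MLL-AF9 cells under both, with 12.6 and 13.5 CPM in the intact MLL-AF9 libraries, against 107 CPM in wild-type LSK cells (log2 ratio -3.04 per CPM and -3.70 scaled). Tpi1 (-0.65 and -1.31) and Ldha (-0.08 and -0.73) were lower by smaller margins. By unscaled CPM, Pfkm was the only member with its highest mean over all 6 groups in LSK cells. TMM scaling lifts the LSK levels against the others (factors 0.623 and 0.626, against 0.945 to 1.27 for MLL-AF9 libraries), so this order need not hold after it.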

How the data were processed

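Raw read counts per NCBI gene number, 1 table for each of 9 libraries, were used as deposited. TopHat2 2.0.11, Bowtie 0.12.8 and the build mm9 are named per the submitters' processing notes. Which counter, annotation and strand setting made the counts is not given in the sources used here. Overlapping genes and near-identical copies may therefore share reads. The numbers of 23185 of 23282 genes were matched to symbols in the RefSeq table of GRCm38.p6, and the others held 0.0374% to 1.01% of a library's counts.

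The 7 MLL-AF9 libraries were fitted together in edgeR 4.0.16 (R 4.3.3, limma 3.58.1): filterByExpr, TMM scaling, quasi-likelihood F-test, Benjamini-Hochberg adjustment over 14997 genes, threshold 0.05. The totals of all genes per library were kept as library sizes, and SE is the log2 fold change over the root of F. The fit was tried on counts simulated with known changes and 1 spread per gene for all 7 libraries. Such counts hold no pair as alike as the FOXO3 libraries, so they cannot show how that pair affects the calls. DESeq2 1.42.0, other scalings and filters, a replicate block, sex as a covariate, the FOXO3 pair summed and leaving out each library were alternatives. The LSK pair got log2 CPM ratios with 95% Clopper-Pearson intervals and no test. A count of 0 allows up to 3 counts, and intervals and limits cover counting error only. Level per kb used GENCODE M21 exon lengths, and transcripts were searched for copies with BLAST 2.17.0.

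The members and pathway lists were chosen with earlier results of these data known. All 10 members are named. Of each other list the 4 called genes with the smallest p are named, or 2 where none was called. Slc2a8, a call outside that rule, was named after its values were seen.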

Additional observations from a re-analysis of the deposited data

Results flagged for a closer look

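For 5 members every labelled-deleted MLL-AF9 library stood above the intact ones, while the LSK library labelled Mll4 deleted stood below the wild-type one. The share of all genes with both was not taken, so this count is no result about the members. Each part was common: 26.9% of all genes stood so in MLL-AF9 cells. In the LSK pair 35.6% of genes with at least 10 counts in either library were at least 2-fold lower. The LSK log2 ratio was -1.29 for Pfkm, beside a log2 fold change of 1.22 in MLL-AF9 cells. It was -1.10 for Tpi1 and -0.77 for Pgk1, beside 0.75 and 0.76 in MLL-AF9 cells. For Ldha it was -0.75, beside 0.45, and for Pkm -0.15, beside 0.63. The value of Pkm is close to the median of all genes in the LSK pair (-0.17). The difference between the cell types was not tested, because the LSK groups have 1 library each.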

How the results depend on the processing

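On Mll4 loss 2237 genes and 5 members were called. Library totals alone gave 3540 genes and DESeq2 3706, with 6 members called by the totals and 5 by DESeq2. Totals alone moved the median of all genes to 0.24 from -0.03 and also called Ldha (0.74). Only the 4 libraries compared gave 0 genes and 0 members in edgeR (3498 genes at an unadjusted p under 0.05). The FOXO3 pair summed gave 312 genes and 0 members. Without 1 library in turn the calls ranged from 302 to 3106 genes and from 0 to 6 members. With FOXO3 1069 genes and 1 member were called. DESeq2 gave 2166 and 2, only the libraries compared 9710 and 9, and the pair summed 178 and 0. Without 1 library they ranged from 140 to 2213 genes and from 0 to 2 members. Between the transformations 3260 genes and 0 members were called. Only the libraries compared gave 0 genes in edgeR, with 3299 at an unadjusted p under 0.05 (DESeq2 4536), and the pair summed 1045. DESeq2 gave 1 member, and without 1 library the calls ranged from 1043 to 4920 genes and from 0 to 2 members. MLL-AF9 against LSK cells gave 7 members higher by CPM and 4 with TMM scaling over 9 libraries. The cause of these shifts was not tested. Replicate numbers stand only in the file headers. Deviations of libraries of a number correlated by 0.169 for deleted with intact, 0.0195 for deleted with FOXO3 and 0.00899 for intact with FOXO3. Such correlations cannot show whether libraries of a number share a culture or batch. A replicate block gave 2393 genes for Mll4 loss, 1080 for FOXO3 and 2575 between transformations, with 5, 1 and 0 members. Of single genes' values under the alternatives, 404 counted as unchanged. For tested values this means the same direction and side of the threshold, and for LSK ratios, which have no test, a value within the counting interval. Of the tested values 33 lost the threshold, 20 gained it and 20 changed sign, none of these last past the threshold before or after. Only 1 LSK ratio moved out of its interval. For Mll4 loss, the values without 1 library ran from -0.13 to 0.22 for Hk1, from -0.51 to 0.89 for Hk3 and from -0.0052 to 0.19 for Pfkp. With FOXO3 the replicate block gave 0.058 for Hk2. Between the transformations sex as a covariate gave 0.016 for Hk2. Tpi1 was -0.0077 with no filter, -0.031 at a mean of at least 5 CPM and -0.015 with the pair summed, and Ldha -0.013, -0.037 and -0.020 under the same 3. Without 1 library Hk2 ran from -0.48 to 0.33, Hk3 from -0.075 to 1.30, Tpi1 from -0.093 to 0.12 and Ldha from -0.020 to 0.029. The LSK ratio of Pfkl, which has no test, was -0.012 without the 10 most abundant genes.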
